A study of Mus musculus with 2 samples.

Results

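The genes described here encode the lysosomal cathepsins and the vacuolar proton pump (V-ATPase) that acidifies lysosomes. Members were chosen by symbol alone, as every mouse gene named Cts with 1 further letter or with a name starting in Atp6v or Atp6ap. This gave 46 genes, of 16174 genes listed in either library of the series. They comprise 18 cathepsins, 25 V-ATPase subunits and accessory proteins, 2 pseudogenes of Atp6v0c, and Atp6v1fnb, a neighbour of Atp6v1f that is no pump subunit.

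RNA sequencing was carried out on brown adipose tissue of female C57BL/6 mice fed chow until 45 weeks of age. The knockout library came from D3Bfl/fl-UCP1-Cre+/- mice, whose Cre recombinase is under the Ucp1 promoter and so is made in brown adipocytes. The control library came from D3Bfl/fl mice, so both libraries carry the floxed allele. D3B is read here as Dnmt3b, a de novo DNA methyltransferase. Each genotype was represented by 1 library, with 10068359 expected counts in the knockout and 9666528 in the control. How many mice went into each library is not stated in the sources used here. No test between genotypes was possible, and no difference given here has a replicate check. Because the control genotype names no Cre, effects of Cre and of D3B loss cannot be told apart, nor can genotype and sequencer lane (lane 1 for the knockout and lane 2 for the control). Dnmt3b itself was at 0.18 FPKM in the knockout and 0.39 FPKM in the control library, from 7 and 15 counts. The interval of its ratio, 0.16 to 1.20, included 1. The tissue label was checked against its markers: Ucp1 stood at 4271 FPKM in the knockout and 4987 FPKM in the control library.

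Lysosomes degrade proteins, lipids and organelles that reach them by endocytosis and autophagy. Cathepsins are their main proteases, most of them cysteine proteases that work best at acid pH. The V-ATPase keeps the lumen acid: its cytosolic V1 sector burns ATP, and its membrane V0 sector moves protons. In bulk fat both adipocytes and resident macrophages contribute lysosomal transcripts, and macrophages are rich in several cathepsins.

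FPKM counts fragments per kilobase of transcript, scaled to library size, so levels can be compared between genes. The log2 ratio is the log2 of (FPKM + 1) in knockout over (FPKM + 1) in control, and a gene is called past 1.5-fold on that scale. Ratios without further comment are plain FPKM ratios of knockout to control. The range in brackets after a ratio is its 95% counting interval, which covers counting error only and compares these 2 libraries. A gene was tested, here meaning measured well enough to be compared, when either library had it at 1 FPKM or more.

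Of the 46 genes, 32 reached 1 FPKM in a library, 5 were listed below it and 9 were not listed. The 32 were 11 cathepsins, 20 V-ATPase genes and the pseudogene Atp6v0c-ps2. Just inside the limit lay Atp6v1g2, at 1.9 FPKM in the knockout and 1.27 FPKM in the control library. Just outside lay Atp6v1fnb, not listed in the knockout and at 0.52 FPKM in the control library. Among cathepsins, Ctse, Ctsg and Ctsw were listed with at most 2 counts in a library. Ctsg is a granule protease of neutrophils and Ctsw is known from cytotoxic lymphocytes. The cathepsins Ctsj, Ctsm, Ctsq and Ctsr, known from mouse placenta, were not listed in either library. On the pump side, Atp6v1b1, Atp6v1e2, Atp6v1g3 and Atp6ap1l were not listed, and Atp6v0a4 had 2 counts in the knockout library and none in the control. Atp6v0a4, Atp6v1b1 and Atp6v1g3 are isoforms known from acid-secreting kidney cells. For a transcript of 2000 bases, the limit that a count of 0 allows (3 counts) was 0.152 FPKM in the knockout and 0.158 FPKM in the control library.

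**Figure D1:**
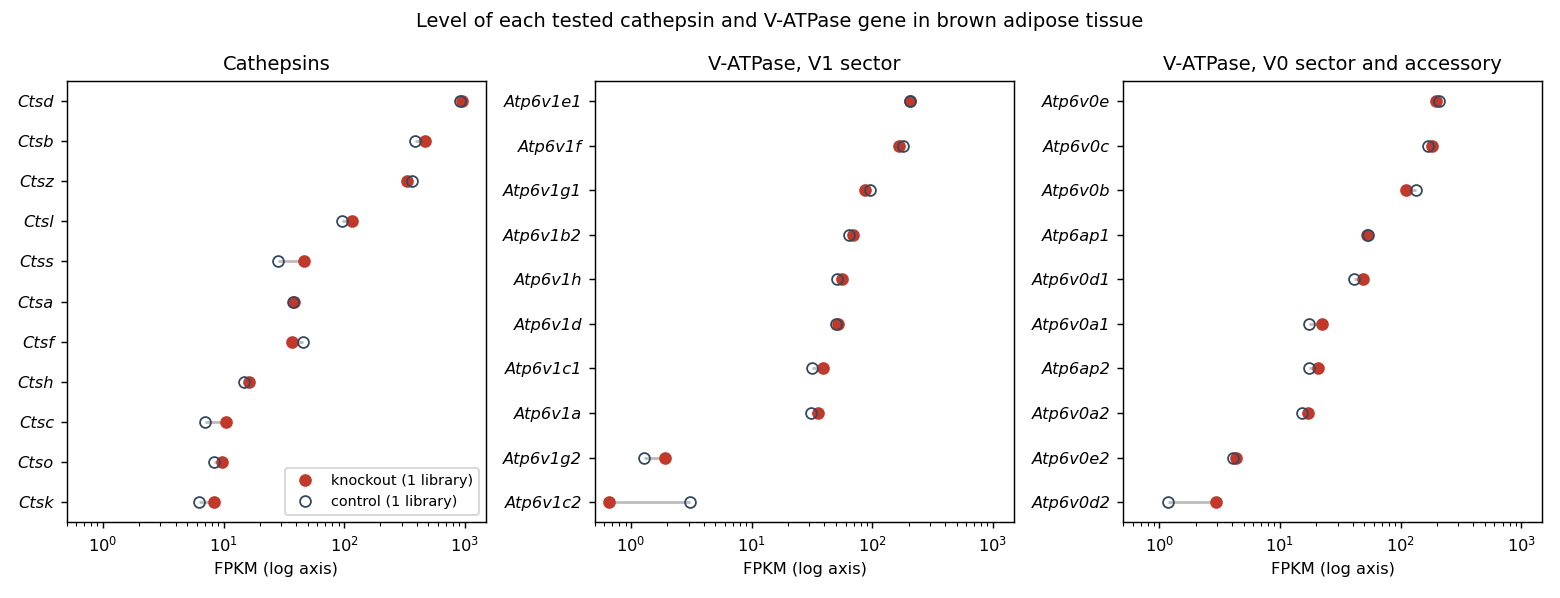
FPKM of the 11 tested cathepsins and 20 tested V-ATPase genes on a log axis, with a filled point for the knockout library and an open point for the control library. Ctsd had the highest level of these genes in both libraries, and the pairs of Atp6v1c2, Atp6v0d2, Ctss, Ctsc and Atp6v1g2 lie farthest apart.

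Cathepsins were slightly higher in the knockout library than in the control, led by Ctss and Ctsc. Of the 11 tested cathepsins 9 had a log2 ratio above 0 and 2 below, where 45.9% of all 11746 tested genes lay above and 53.8% below. Their median log2 ratio was 0.19, against -0.03 over all tested genes. Ctss was the cathepsin past 1.5-fold higher, and 0 were past 1.5-fold lower. Among all tested genes 4.63% were past 1.5-fold higher and 3.69% past 1.5-fold lower, so 1 of 11 is close to the background. Past a log2 ratio of 0.32, a smaller limit, 3 of 11 cathepsins were higher, against 12.2% of all tested genes, and 0 were lower, against 13.4%. At 2-fold 0 cathepsins were called, where 0.988% of all tested genes were higher and 0.715% lower. The counting interval lay above 1 for 6 of 11 cathepsins, against 18.2% of all tested genes, below 1 for 2, against 22.4%, and included 1 for 3. These intervals narrow with the count, so abundant genes leave 1 at smaller differences. Their summed level was 2039 FPKM in the knockout and 1913 FPKM in the control library, for a ratio of 1.07.

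Ctss, the cysteine protease that cleaves the invariant chain of MHC class II in antigen-presenting cells, was at 46.3 FPKM in the knockout and 28.3 FPKM in the control library. Its ratio was 1.63 (1.43 to 1.86), from 615 and 362 counts. Ctsc, a dipeptidyl peptidase that activates granule proteases of immune cells, was at 10.5 FPKM in the knockout and 7.0 FPKM in the control library. Its plain ratio was 1.499 (1.23 to 1.83). On the scale used for calls, with 1 added to each FPKM, its log2 ratio was 0.52, short of 1.5-fold. Ctsk, the collagen-degrading protease of osteoclasts, was at 8.34 FPKM in the knockout and 6.22 FPKM in the control library, with a ratio of 1.34 (1.01 to 1.79). These 3 genes were the cathepsins with a log2 ratio above 0.32. Without them the remaining 8 cathepsins, a choice made after the values were seen, had a median log2 ratio of 0.10, with 6 above and 2 below 0.

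Ctsd, Ctsb, Ctsl, Ctsz and Ctsf differed less between the libraries than Ctss, Ctsc and Ctsk. Ctsd, the main aspartic protease of lysosomes, had the highest level, at 955 FPKM in the knockout and 916 FPKM in the control library, for a ratio of 1.04 (1.02 to 1.06). Ctsb, a cysteine protease with both endopeptidase and dipeptidase activity, was at 469 FPKM in the knockout and 388 FPKM in the control library. The ratio of 1.21 (1.19 to 1.23) was nearly that of Ctsl, an endopeptidase, at 1.20 (1.13 to 1.28). Ctsl was at 115 FPKM in the knockout and 95.8 FPKM in the control library. Ctsz, a carboxypeptidase, lay on the other side of 1, at 333 FPKM in the knockout and 366 FPKM in the control library, with a ratio of 0.910 (0.874 to 0.949). The lowest ratio among cathepsins was that of Ctsf, a widely expressed cysteine protease, at 0.814 (0.736 to 0.900). It was at 36.9 FPKM in the knockout and 45.3 FPKM in the control library. Read depth at this level makes even small ratios exceed counting error, which says nothing about the spread between mice.

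The remaining cathepsins stayed within counting error. Ctsa, a serine carboxypeptidase that also stabilises lysosomal beta-galactosidase and neuraminidase, was at 38.5 FPKM in the knockout and 37.6 FPKM in the control library. Ctsh, an aminopeptidase, had a ratio of 1.10 (0.918 to 1.32) at 16.3 FPKM in the knockout and 14.8 FPKM in the control library. Ctso had a ratio of 1.16 (0.985 to 1.36) at 9.73 FPKM in the knockout and 8.4 FPKM in the control library. Gene models of some members overlap others in GENCODE M21, and the protocol does not mention strand. Exons of Fdft1 on the opposite strand cover 12.8% of the exon bases of Ctsb. Gm49369 on the same strand covers 34.4% of those of Ctsd, and Gm47123 on the opposite strand 26.8% of those of Ctsl. Exons of Pltp and Neurl2, both on the opposite strand, cover 10.5% and 6.87% of those of Ctsa. Among pump genes, Gm12841 covers 11.8% of the exon bases of Atp6v0b and 4930404A12Rik 9.86% of those of Atp6v0a2, both on the opposite strand. The expected counts of these cathepsins and pump genes were whole, so none showed reads divided with another gene. The gene models behind the counts may differ from GENCODE M21. Which gene the reads from such bases came from cannot be told here, so these values are less certain than their intervals.

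V-ATPase genes as a group summed to nearly the control level in FPKM as deposited, though more of them lay above 0 than below. Of 20 tested genes 14 had a log2 ratio above 0, against 45.9% of all tested genes, and the median was 0.10. One gene was past 1.5-fold higher, Atp6v0d2, and 1 was past 1.5-fold lower, Atp6v1c2. This is 1 of 20 in each direction, near the 4.63% and 3.69% of all tested genes. Among the 16 genes with at least 10 FPKM in a library, 0 passed 1.5-fold in either direction, and their log2 ratios spanned -0.27 to 0.32. The counting interval lay above 1 for 8 of 20, against 18.2% of all tested genes. It lay below 1 for 2, against 22.4%, and included 1 for 10. The summed level was 1369 FPKM in the knockout and 1374 FPKM in the control library, for a ratio of 0.996. Summed ratios depend on the scaling, since FPKM totals over all genes were 571034 in the knockout and 606888 in the control library. Summed counts of the pump genes were 18674 in the knockout and 17303 in the control library, before scaling to library size. The difference between the cathepsin and V-ATPase medians was 0.09 on the log2 scale, with no test. The same difference between the means was 0.13.

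**Figure D2:**
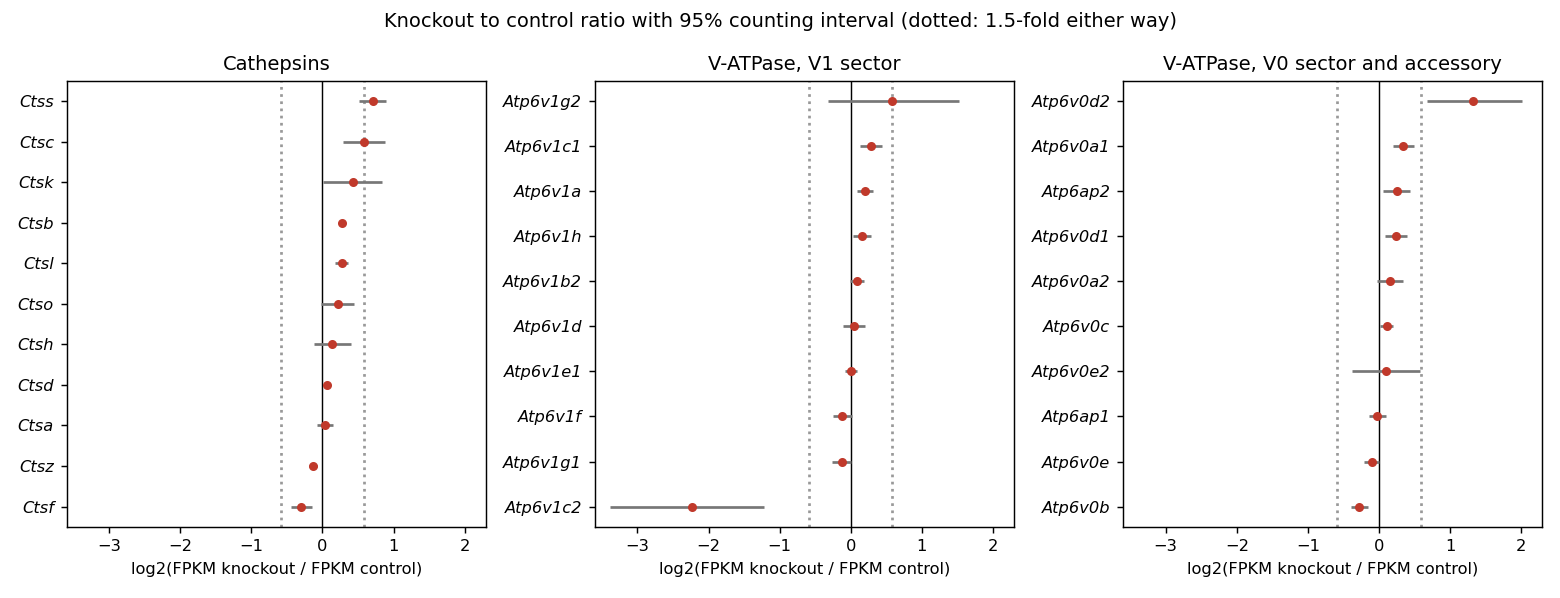
Log2 of the plain FPKM ratio of knockout to control for each tested gene, with its 95% counting interval as a bar and dotted lines at 1.5-fold either way. Atp6v0d2 and Atp6v1c2 stand at opposite ends of the pump genes, with ratios of 2.51 and 0.213, while Ctss and Ctsc lead the cathepsins.

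The catalytic V1 sector is where ATP is hydrolysed. Over its 10 tested genes the median log2 ratio was 0.07, and their summed level was 711 FPKM in the knockout and 711 FPKM in the control library. Atp6v1a, the catalytic A subunit, was at 35.7 FPKM in the knockout and 31.05 FPKM in the control library, for a ratio of 1.15 (1.06 to 1.24). Atp6v1b2, the B subunit that pairs with it, was at 68.6 FPKM in the knockout and 64.6 FPKM in the control library, for a ratio of 1.06 (0.994 to 1.13). Atp6v1e1, a peripheral stalk subunit and the most abundant of the sector, was at 205.0 FPKM in the knockout and 204.6 FPKM in the control library. The other stalk subunit, Atp6v1g1, was at 86.9 FPKM in the knockout and 94.9 FPKM in the control library, with a ratio of 0.916 (0.836 to 1.003).

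Subunits of the rotor and of the regulatory part of V1 showed ratios of similar size. Atp6v1d, in the central rotor, had a ratio of 1.04 (0.930 to 1.15), and Atp6v1f, its partner, 0.923 (0.844 to 1.01). Atp6v1f was at 165 FPKM in the knockout and 179 FPKM in the control library. Atp6v1h, a regulatory subunit, was at 56.3 FPKM in the knockout and 50.5 FPKM in the control library, for a ratio of 1.12 (1.02 to 1.22). Atp6v1c1, the widely expressed C subunit that joins V1 to V0, was at 38.6 FPKM in the knockout and 31.7 FPKM in the control library, for a ratio of 1.22 (1.10 to 1.35).

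The C subunit isoforms went in opposite directions. Atp6v1c2, an isoform with restricted expression, was at 0.66 FPKM in the knockout and 3.1 FPKM in the control library, from 10 and 46 counts. Its ratio of 0.213 (0.096 to 0.428) was the lowest of all tested pump genes, and it passed the 1 FPKM limit through the control library alone, so it had to differ. Atp6v1c2 made up 1.23% (0.591 to 2.25) of the C subunit counts in the knockout and 6.76% (4.99 to 8.92) in the control library, with exact 95% binomial intervals. Its level was far below that of Atp6v1c1 in both libraries. Atp6v1g2, the G isoform known from brain, had 28 counts in the knockout and 18 in the control library, and its ratio of 1.496 (0.799 to 2.87) included 1.

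The V0 sector holds the proton channel. Over its 8 tested genes the median log2 ratio was 0.13, and their summed level was 585 FPKM in the knockout and 593 FPKM in the control library. Atp6v0c, the proteolipid of the rotating ring, was at 183 FPKM in the knockout and 169.8 FPKM in the control library, for a ratio of 1.08 (1.01 to 1.15). Atp6v0b, the second proteolipid of that ring, had the lowest ratio of the sector, 0.827 (0.761 to 0.899), at 111 FPKM in the knockout and 134 FPKM in the control library. Atp6v0e, a small subunit, was at 195 FPKM in the knockout and 209.6 FPKM in the control library, and its isoform Atp6v0e2 had a ratio of 1.07 (0.766 to 1.49).

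Reads of Atp6v0c are divided with a pseudogene. Atp6v0c-ps2 was not listed in the knockout library and stood at 2.83 FPKM in the control library, from an estimated 29.6 counts that were not whole. Of the 50-base words of its GENCODE transcript 88.0% also occur in Atp6v0c. With both genes added, the counts were 2027 in the knockout and 1833 in the control library, for a ratio of 1.06 (0.997 to 1.13) after scaling to library size. The interval of Atp6v0c, which excluded 1 alone, then included 1, and the pseudogene was kept apart from the pump genes.

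The a subunit, which carries the proton path, has several isoforms that steer the pump to different membranes. Atp6v0a1 was at 22.2 FPKM in the knockout and 17.6 FPKM in the control library, for a ratio of 1.27 (1.14 to 1.40). Atp6v0a2, known from the Golgi, was at 17.1 FPKM in the knockout and 15.35 FPKM in the control library, for a ratio of 1.11 (0.979 to 1.27). The third isoform, a3, is encoded by Tcirg1, whose name the choice by symbol does not reach. Tcirg1, known from osteoclasts and macrophages, was at 9.18 FPKM in the knockout and 8.5 FPKM in the control library, with a ratio of 1.08 (0.897 to 1.30). The share of a1 in the counts of a1, a2 and a3 was 53.7% (51.3 to 56.2) in the knockout and 50.4% (47.7 to 53.1) in the control library. These intervals overlap, but overlap is no test of a difference, and they cover counting error only. Whether isoform use shifted was not tested.

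The d isoforms were less alike. Atp6v0d1, the widely expressed d subunit that couples V0 to the rotor, was at 48.55 FPKM in the knockout and 41.1 FPKM in the control library, for a ratio of 1.18 (1.06 to 1.32). Atp6v0d2, the isoform known from osteoclasts and macrophages, was at 2.94 FPKM in the knockout and 1.17 FPKM in the control library, from 73 and 28 counts. Its ratio of 2.51 (1.61 to 4.04) was the highest of all tested cathepsin and pump genes. Atp6v0d2 took 8.71% (6.89 to 10.8) of the d subunit counts in the knockout and 4.31% (2.88 to 6.17) in the control library, and these intervals did not overlap. Of the 2 tested accessory proteins of the pump, Atp6ap1 was close to its control level and Atp6ap2 was somewhat higher. Atp6ap1, which helps the pump to assemble, was at 52.6 FPKM in the knockout and 53.4 FPKM in the control library. Atp6ap2, the prorenin receptor, was at 20.6 FPKM in the knockout and 17.3 FPKM in the control library, for a ratio of 1.19 (1.04 to 1.36).

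Among 10 tested genes that assemble or regulate the pump under other names, 0 passed 1.5-fold. Their median log2 ratio was 0.07, with 7 above and 3 below 0. Rogdi, which belongs to the rabconnectin complex that reassembles the pump, had the largest difference among those with at least 10 FPKM, a ratio of 0.777 (0.661 to 0.912). The assembly factors Vma21 and Tmem199 had ratios of 1.04 (0.905 to 1.19) and 1.10 (0.900 to 1.34). Oxr1, a protein whose domain acts on the V1 sector, had 0.963 (0.850 to 1.09).

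The log2 ratio of pump genes followed transcript length. Across the 20 tested genes Spearman's rho between the log2 ratio and length was 0.63, against 0.16 over all tested genes and -0.09 over the 11 cathepsins. These are descriptions over genes of the same 2 libraries. Of the 5 pump genes with transcripts under 1200 bases, Atp6v0b, Atp6v0e, Atp6v1f and Atp6v1g1 had a log2 ratio below 0 and Atp6v0c one above 0. Of the 15 longer ones 13 lay above 0. Among all tested genes, of any length, 45.9% lay above 0 and 53.8% below. Over all tested genes the median log2 ratio was -0.16 for the shortest 10% and 0.05 for the longest 10%. When the median of the 500 tested genes nearest in length was subtracted, the log2 ratios of Atp6v0e and Atp6v1f turned to 0.08 each, and Atp6v0b was at -0.14. On that scale 17 of 20 pump genes were above 0 with a median of 0.15, and 9 of 11 cathepsins with a median of 0.20. The share of all tested genes above 0 on the same scale was 50.1%. Whether length bears on these values through the libraries or the tissue was not tested.

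**Figure D3:**
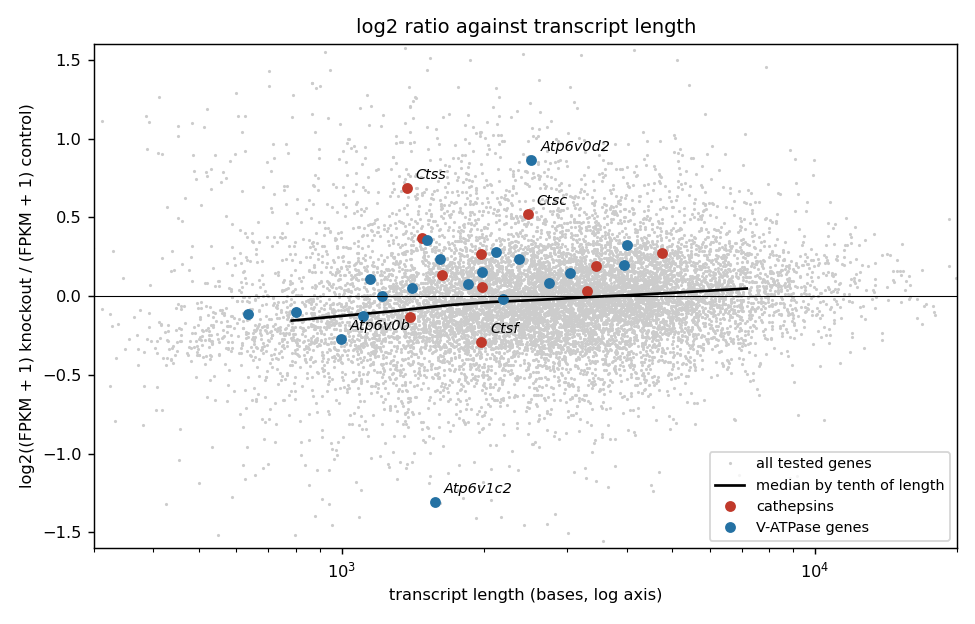
Log2 ratio of (FPKM + 1) in knockout over control against transcript length on a log axis, for cathepsins (red), pump genes (blue) and all tested genes (grey), with the median of 10 length bins as a line; 73 genes lie outside the plotted range. Of the 5 pump genes under 1200 bases 4 lie below 0, and Ctss, Ctsc and Atp6v0d2 stand above it and Atp6v1c2 below it.

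Markers of macrophages were higher in the knockout library as well. The marker list, like the others, was chosen with earlier results of these data known. All 17 tested macrophage markers, of 19 on the list, had a log2 ratio above 0, against 45.9% of all tested genes. Their median was 0.56, and 8 were past 1.5-fold higher, against 4.63% of all tested genes. The summed level of the list was 652 FPKM in the knockout and 437 FPKM in the control library. None was at 0, and the defining markers had ratios of 1.51 (1.26 to 1.82) for Adgre1, 1.58 (1.39 to 1.79) for Csf1r and 1.248 (1.12 to 1.39) for C1qa. Cd68, a lysosomal membrane protein of macrophages, was at 21.1 FPKM in the knockout and 10.7 FPKM in the control library, for a ratio of 1.97 (1.54 to 2.53). The tested markers spanned log2 ratios of 0.19 to 1.37. In bulk tissue more cells of a type and more RNA per cell cannot be told apart, and the part of macrophages in the cathepsin and pump values was not tested.

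Other antigen-presenting and stromal markers were also higher. Of the list for dendritic cells and B cells, 6 of 11 genes were tested. All 6 lay above 0, against 45.9% of all tested genes, with a median of 0.40. The list summed to 668 FPKM in the knockout and 514 FPKM in the control library. Cd74, the invariant chain that Ctss cleaves, was at 255 FPKM in the knockout and 199 FPKM in the control library, for a ratio of 1.28 (1.21 to 1.35). The defining markers Flt3, Cd79a and Ms4a1 had at most 6 counts in a library, and Zbtb46 had a ratio of 1.20 (0.839 to 1.72). Fibroblast and preadipocyte markers had a median of 0.27 over 9 tested genes, with 8 above 0 and 4 past 1.5-fold higher. The shares over all tested genes were 45.9% and 4.63%. The fibroblast and preadipocyte list summed to 547 FPKM in the knockout and 354 FPKM in the control library. Of the 11 brown adipocyte markers 9 lay below 0, against 53.8% of all tested genes, with a median of -0.12. This list summed to 27234 FPKM in the knockout and 30047 FPKM in the control library. The part of these cell types in the cathepsin and pump values was not tested.

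**Figure D4:**
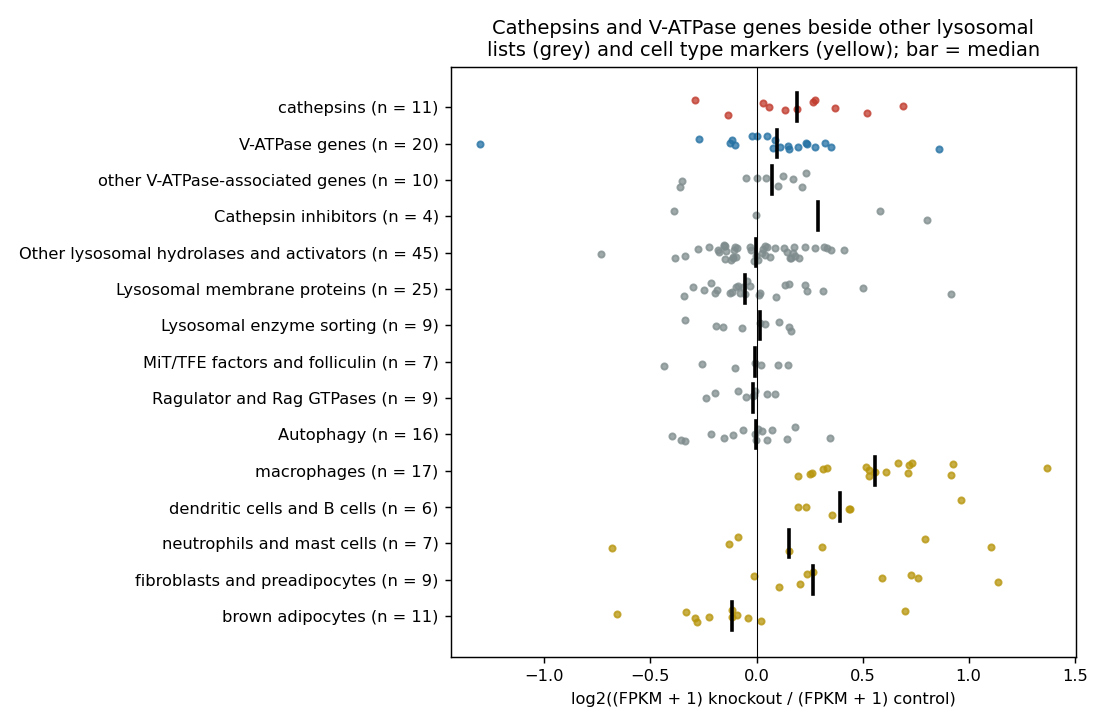
Log2 ratio of (FPKM + 1) in knockout over control for each tested gene of the cathepsins (red), the pump (blue), other lysosomal lists (grey) and cell type markers (yellow), with the median as a bar. Macrophage markers lie all above 0 with a median of 0.56, cathepsins have a median of 0.19, and other lysosomal hydrolases one of 0.00.

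Other lysosomal enzymes were balanced around 0. The 45 tested hydrolases and activators had a median log2 ratio of 0.00, with 22 above and 23 below, 0 past 1.5-fold higher and 1 past 1.5-fold lower. That gene was Pla2g15, the lysosomal phospholipase A2, at 10.55 FPKM in the knockout and 18.2 FPKM in the control library, for a ratio of 0.580 (0.499 to 0.674). Man2b1, an alpha-mannosidase, had a ratio of 1.28 (1.13 to 1.45). Rnaset2a had a ratio of 0.763 (0.690 to 0.843), with reads shared with other genes. The 25 lysosomal membrane proteins had a median of -0.06, with 10 above and 15 below 0, and the one past 1.5-fold higher was Cd68. Laptm5, a membrane protein of blood cells, had a ratio of 1.46 (1.24 to 1.72), and Cd63, a tetraspanin, 1.247 (1.13 to 1.38). Abcb9, a peptide transporter, had a ratio of 0.771 (0.661 to 0.897).

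Inhibitors of the cathepsins differed among themselves. Of the 12 genes on the list 4 were tested. Cst3, the secreted cystatin C, was at 1134 FPKM in the knockout and 1485 FPKM in the control library, for a ratio of 0.764 (0.742 to 0.787). Its counts of 7915 and 9964 put it well outside counting error. Cstb, the cytosolic cystatin B, had a ratio of 0.997 (0.900 to 1.10). Ctla2a, a mouse inhibitor related to cathepsin propeptides, was past 1.5-fold at 30.1 FPKM in the knockout and 16.8 FPKM in the control library, for a ratio of 1.79 (1.51 to 2.13). Its reads were in part shared with other genes. Its relative Ctla2b had a ratio of 1.58 (1.13 to 2.22).

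The MiT/TFE factors, which bind E-boxes in lysosomal genes, were not past 1.5-fold in either direction. Tfe3 was at 12.95 FPKM in the knockout and 15.7 FPKM in the control library, for a ratio of 0.826 (0.720 to 0.948). Zkscan3, described as a repressor of lysosomal genes, had a ratio of 0.724 (0.629 to 0.835), with shared reads. Flcn and Fnip1, which act on the nuclear entry of these factors, had ratios of 1.01 (0.937 to 1.10) and 1.08 (0.964 to 1.21). Over the 7 tested genes of the list the median log2 ratio was -0.01.

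Promoters were searched because these factors act on lysosomal genes through the CLEAR element. RefSeq promoter sequences of GRCm38.p6 were at hand for 9 tested cathepsins and 14 tested pump genes, and the 250 bases before each start were searched on both strands. The CLEAR consensus, searched letter for letter, is CACGTG with GT before it and AC after it. It was in 0 of the 9 and 0 of the 14, against 0.27% of all 27025 genes with such a sequence. With so low a share over all genes, 0 says little about these members. Sites that depart from the consensus were not counted. The E-box core of the consensus, CACGTG, was in 4 of the 9 cathepsins and 2 of the 14 pump genes, against 6.86% of all genes. The AP-1 word TGANTCA was in 0 of 9 and 1 of 14 (Atp6v0a1), against 7.82%, and the word GAGGAAGT, bound by the macrophage factor PU.1, in 1 of 9 (Ctsc) and 0 of 14, against 2.79%. Every CLEAR match also counts as an E-box match. The E-boxes are shown with up to 10 bases on either side, cut at the edges of the window, 5′ to 3′ on the strand of the gene and with CACGTG in capitals.
Ctsa (chr2:164833751-164833772, plus strand): agcaaactgtCACGTGatgcag
Ctsd (chr7:142387910-142387935, minus strand): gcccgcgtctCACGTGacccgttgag
Ctsd (chr7:142388057-142388077, minus strand): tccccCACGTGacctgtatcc
Ctsf (chr19:4855076-4855101, plus strand): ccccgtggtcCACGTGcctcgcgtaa
Ctsl (chr13:64370741-64370766, minus strand): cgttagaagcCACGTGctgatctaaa
Atp6v0b (chr4:117887332-117887357, minus strand): gtcggcgcatCACGTGcgccggtcag
Atp6v0b (chr4:117887350-117887375, minus strand): gcgcgggggtCACGTGgggtcggcgc
Atp6v1a (chr16:44139375-44139400, minus strand): ttttttaaatCACGTGataggcttaa

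The 4 cathepsins with an E-box did not share a direction: Ctsl had a ratio of 1.20, Ctsd 1.04, Ctsa 1.02 and Ctsf 0.814. The pump genes with one were Atp6v1a at 1.15 and Atp6v0b at 0.827. Neither Ctss nor Ctsc, the cathepsins with the highest ratios, held a CACGTG in this window. A match is a description of the letters and not of binding, and a window without one says nothing about the factor.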

How the data were processed

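The members and gene lists were chosen with earlier results of these data known. For each library the authors deposited an expected count, an FPKM value and a transcript length per Entrez gene, per the file headers. The expected count deposited by the authors divides reads that match several genes among them. The FPKM deposited by the authors is per kilobase of transcript and scaled to library size; FPKM totals were 571034 in the knockout and 606888 in the control library. RSEM and the build mm9 are named in the submitters' processing notes, with no RSEM version; the aligner used is not named there.

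Symbols came from a RefSeq table of GRCm38.p6 by Entrez identifier (16134 of 16174 genes matched), and unlisted genes were set to 0. A count more than 0.05 from whole was called shared. With 1 library per genotype no test was made. The 11746 genes at 1 FPKM or more in a library were compared on log2(FPKM + 1), which understates differences of low genes, and called past 1.5-fold. Intervals are 95% Clopper-Pearson intervals, computed from expected counts rounded to whole numbers and conditional on their sum; reads copied by PCR are not independent molecules. Interval and rule were tested on simulated data that held counting error only. The simulation had no spread between mice or libraries and says nothing about such spread. All tested pathway and marker genes were summarised; the text names at most 4 genes per list, those with the largest absolute log2 ratio among genes of at least 10 FPKM in a library, besides defining markers. Tcirg1 was named for its role, and Ctla2b after its value was seen. For 1 list, a gene that this rule takes is not reported here. Alternatives covered pseudocount, filter, fold, CPM, scaling, shared counts, length and GC content. Python 3.11.15, pandas 2.3.3, numpy 2.4.6, scipy 1.17.1 and matplotlib 3.10.9 were used.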

Additional observations from a re-analysis of the deposited data

How the results depend on the processing

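Under every alternative run the cathepsin median log2 ratio stayed above 0 (0.13 to 0.27), as did the V-ATPase median (0.09 to 0.19) and their difference (0.04 to 0.11). All alternatives reuse the same 2 libraries, and setting the median log2 ratio to 0 cannot change the difference. The median limits of the single-gene counting intervals were 0.01 and 0.36 for cathepsins, and -0.06 and 0.25 for V-ATPase genes. Subtracting opposite limits from each other gave -0.23 and 0.41, a span that includes 0. These limits belong to plain FPKM ratios and form no confidence interval for a median or for the difference. The number of genes past the fold was less stable. With FPKM rescaled to 1 common total, with or without the 20 most abundant genes, 2 cathepsins were higher, since Ctsc joined Ctss; over all tested genes the rescaled counts were 695 higher and 320 lower, against 544 and 434 as deposited. Past a log2 ratio of 0.32, 3 cathepsins and 3 V-ATPase genes were higher, with 1428 of all genes higher and 1576 lower. At 2-fold no cathepsin and 0 V-ATPase genes were higher, with 116 of all genes higher and 84 lower; Atp6v1c2 was still lower. With a pseudocount of 5, or a mean of at least 5 FPKM, 0 V-ATPase genes were past 1.5-fold in either direction, so the calls of Atp6v0d2 and Atp6v1c2 rest on low values. Over all genes the higher and lower counts were 137 and 109 with a pseudocount of 5, 222 and 192 with the stricter filter, 884 and 734 with a pseudocount of 0.1, and 917 and 723 with CPM. With the pseudogene counted, an alternative chosen after seeing the data like that on GC content, 2 V-ATPase genes were lower. Of 275 values of single genes under alternatives 6 changed sign, in Atp6ap1, Atp6v0e and Atp6v1f. The causes of these shifts were not tested. No paired analysis was possible because each genotype has 1 library, and for the same reason no library could be left out.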

Other observations

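Lists around the lysosome that the comparison above leaves out differed little between the libraries. The 9 genes of the Ragulator complex and Rag GTPases, which dock mTORC1 at the lysosome beside the V-ATPase, had a median log2 ratio of -0.02, with 0 past 1.5-fold. Lamtor4, a Ragulator subunit, was at 87.05 FPKM in the knockout and 99.8 FPKM in the control library, for a ratio of 0.872 (0.788 to 0.964). The 9 genes that sort enzymes to lysosomes had a median of 0.02. Gga1, an adaptor for sorting receptors, had a ratio of 0.784 (0.702 to 0.874), and the mannose 6-phosphate receptor M6pr 1.12 (1.03 to 1.22). The 16 autophagy genes had a median of 0.00, again with 0 past 1.5-fold. Among them Atg16l1 and Atg7, which act in the lipidation of LC3, had ratios of 0.744 (0.651 to 0.849) and 0.769 (0.682 to 0.867). Map1lc3a, an LC3 gene, was at 196 FPKM in the knockout and 248 FPKM in the control library, for a ratio of 0.791 (0.745 to 0.840).

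Markers of T and NK cells and of skeletal muscle were at low levels. Of 10 T and NK cell markers 1 reached 1 FPKM, and the list summed to 1.85 FPKM in the knockout and 3.13 FPKM in the control library. The defining marker Cd3e had 0 counts in the knockout and 6 in the control library. Of 8 skeletal muscle markers 1 was tested, and the list summed to 3.04 FPKM in the knockout and 2.55 FPKM in the control library. Of 11 neutrophil and mast cell markers 7 were tested, with 2 past 1.5-fold higher and 1 past 1.5-fold lower. The shares over all tested genes were 4.63% and 3.69%. The neutrophil and mast cell list summed to 35.7 FPKM in the knockout and 30.7 FPKM in the control library. Among them S100a8, of neutrophils, had 33 counts in the knockout and 13 in the control library. Mast cell markers did not share a direction. Mcpt4, a mast cell protease, had 49 counts in the knockout and 81 in the control library. Plain ratios were 0.582 for Mcpt4, 0.882 for Cpa3, 0.931 for Cma1, 1.13 for Tpsb2 and 1.41 for Kit. The counting interval lay below 1 for Mcpt4 and above 1 for Kit, and included 1 for Cpa3, Cma1 and Tpsb2.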
